A study of Homo sapiens with 4 samples.

Results

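The kinases that phosphorylate eIF2 alpha, eIF2 alpha itself and the cellular sensors of double-stranded RNA were examined in LN229 cells after *SOX2* knockdown. The 8 genes were *EIF2AK1*, *EIF2AK2*, *EIF2AK3* and *EIF2AK4* (the 4 kinases), *EIF2S1* (their substrate) and *DDX58*, *IFIH1* and *TLR3* (the 3 sensors). Probes were found by gene symbol or older symbol on Applied Biosystems Human Genome Survey arrays, which are 1-colour oligonucleotide arrays read by chemiluminescence. Each gene had 1 probe, so 8 of 33096 gene probes, and 8 of 27903 gene IDs, were studied. LN229 is an established human glioblastoma line, and *SOX2* encodes an HMG-box transcription factor of stem cells. The SOX2 knockdown group (2 arrays) received siRNA against *SOX2*, and the MOCK group (2 arrays) received a control siRNA with no target. The cells of both groups were therefore transfected with siRNA, which is a short double-stranded RNA, and no untransfected cells were on the arrays. The knockdown was transient, and the methods name a pair of *SOX2* siRNAs without saying which was used for the arrays.

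Translation initiation needs eIF2, which brings the initiator tRNA to the ribosome. Under stress, 4 kinases phosphorylate its alpha subunit: *EIF2AK1* (HRI) responds to haem shortage and mitochondrial stress, *EIF2AK2* (PKR) to double-stranded RNA, *EIF2AK3* (PERK) to unfolded protein in the endoplasmic reticulum and *EIF2AK4* (GCN2) to amino acid shortage. Most translation then slows, while translation of the transcription factor ATF4 increases. Double-stranded RNA is also detected in the cytosol by RIG-I (*DDX58*) and MDA5 (*IFIH1*), which signal through the adaptor MAVS, and in endosomes by TLR3, which signals through TICAM1. These routes lead to interferon, and *EIF2AK2*, *DDX58* and *IFIH1* are themselves known interferon-induced genes. The arrays measure mRNA only and not phosphorylation of eIF2 alpha or activity of any sensor.

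Promoters are shown for the 3 members whose window held the interferon response element core, and for *DDX58* as the other cytosolic sensor, whose window did not. Each window is 300 bases (250 before and 50 after the annotated start), taken from RefSeq on GRCh38.p14 and written 5′ to 3′ on the strand of the gene. Capitals mark every match to that core, written here as 2 copies of GAAA with any 2 bases between them and searched on both strands. The *DDX58* window does hold gaaacgaaa, where only c lies between 2 copies of GAAA, a spacing that was not searched. The *IFIH1* window is chr2:162318635-162318934 (minus strand), *EIF2AK2* is chr2:37156931-37157230 (minus strand), *TLR3* is chr4:186068906-186069205 (plus strand) and *DDX58*, which RefSeq lists as *RIGI*, is chr9:32526147-32526446 (minus strand).
IFIH1: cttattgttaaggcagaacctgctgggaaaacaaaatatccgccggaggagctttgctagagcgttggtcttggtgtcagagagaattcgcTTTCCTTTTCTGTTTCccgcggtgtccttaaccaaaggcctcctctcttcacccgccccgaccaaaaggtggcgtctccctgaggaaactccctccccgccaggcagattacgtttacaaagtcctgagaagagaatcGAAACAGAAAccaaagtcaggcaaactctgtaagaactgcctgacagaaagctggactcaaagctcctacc
EIF2AK2: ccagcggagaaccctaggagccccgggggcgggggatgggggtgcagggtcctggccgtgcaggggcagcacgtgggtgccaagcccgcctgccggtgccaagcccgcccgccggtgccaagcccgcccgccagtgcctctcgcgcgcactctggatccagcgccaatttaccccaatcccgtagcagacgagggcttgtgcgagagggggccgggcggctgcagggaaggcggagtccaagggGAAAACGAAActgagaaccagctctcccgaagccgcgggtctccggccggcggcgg
TLR3: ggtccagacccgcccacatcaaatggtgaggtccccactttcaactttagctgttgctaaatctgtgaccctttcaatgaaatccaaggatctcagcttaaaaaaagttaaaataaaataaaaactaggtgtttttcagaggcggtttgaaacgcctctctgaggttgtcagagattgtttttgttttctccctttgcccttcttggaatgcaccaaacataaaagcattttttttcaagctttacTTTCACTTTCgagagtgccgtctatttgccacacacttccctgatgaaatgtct
DDX58: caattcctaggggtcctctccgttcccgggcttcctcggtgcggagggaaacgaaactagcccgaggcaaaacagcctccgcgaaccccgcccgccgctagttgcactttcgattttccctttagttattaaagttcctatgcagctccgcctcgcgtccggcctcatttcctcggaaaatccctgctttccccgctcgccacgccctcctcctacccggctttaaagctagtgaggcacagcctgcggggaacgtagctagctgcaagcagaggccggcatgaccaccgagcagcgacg

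RefSeq's table held promoters of 7 of the 8 members (*EIF2AK1* was the exception). The core was in 3 of the 7 windows, against 3.57% of 35116 promoter windows of the same length. *IFIH1* held 3 matches, of which a pair overlap within the longer run of capitals, and *EIF2AK2* and *TLR3* held 1 match each. The letters CATTGTT, a Sox2 motif known from mouse embryonic stem cells, were searched on both strands and were in 0 of the 7 windows and in 3.33% of all windows. The degenerate SOX2 consensus derived from LN229 cells was not searched here. A match describes the letters only and is not a measured binding site.

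The *SOX2* probe, as a check of the labels, read 0.467 and 0.701 in MOCK and 0.209 and 0.149 after knockdown in scaled signal. Scaled signal is the deposited normalized signal divided by the 75th percentile of its array. Both knockdown arrays were below both MOCK arrays, at 0.307 times the MOCK mean, as the labels imply (log2 change −1.69, SE 0.28, limma adjusted p = 0.117). The signal-to-noise ratio (S/N) was over 3 for 63.8% to 69.4% of gene probes per array, and the 75th percentiles of the deposited signal were between 5.96 and 6.88. For *SOX2*, S/N was 5.17 and 13.56 in MOCK and 3.17 and 3.06 after knockdown, just over the limit of 3. Its MOCK arrays differed by 0.59 on the log2 scale. In the labels, SW620 (a colorectal line) is named once, under treatment, whereas all other fields name LN229. The 5 glioma and astrocyte markers *VIM*, *CD44*, *S100B*, *NES* and *GFAP* had 5 of 6 probes, 1 for each gene, with S/N over 3 on all 4 arrays. Of 9 probes for 8 colorectal markers, 3 passed the filter and 1 had S/N over 3 on all 4 arrays. That probe was for *VIL1* (villin), with S/N from 5.91 to 15.9. *LGALS4* and *CDX2* passed only through the MOCK arrays (S/N 5.20 and 8.20, and 4.38 and 3.18). After knockdown their S/N was 0.93 and 2.90, and 0.20 and 1.66, so no fold is given. *KRT20* and *CDH17* had S/N under 3 on every array. *EPCAM*, *CEACAM5* and *CDX1* did not pass either but had S/N over 3 on some arrays. These were 5.21 in MOCK for *EPCAM*, 4.82 after knockdown for *CEACAM5*, and 3.29 in MOCK and 3.58 after knockdown for *CDX1*. With 2 arrays per group the spread is poorly measured, and precision is limited by that number.

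The probes of the 4 eIF2 kinases had S/N over 3 on all 4 arrays, and their means after *SOX2* knockdown were 8.12% to 16.2% below the MOCK means. None of these differences passed the test, every 95% interval included 0, and 50.2% of all probes kept were lower after knockdown. The PKR gene *EIF2AK2* (Celera gene ID hCG16900.4) gave scaled signals of 1.01 and 1.07 in MOCK and 0.894 and 0.847 after knockdown. Both knockdown arrays were below both MOCK arrays, by 0.17 to 0.34 on the log2 scale over the 4 pairs of arrays. The log2 change was −0.25 (SE 0.13, 95% interval −0.60 to 0.09, limma adjusted p = 0.423).

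The PERK gene *EIF2AK3* (hCG27440.2), the kinase of endoplasmic reticulum stress, read 0.853 and 0.875 in MOCK and 0.755 and 0.75 after knockdown. In scaled signal the arrays within each group were close, and the groups did not overlap. The log2 change was −0.20 (SE 0.12, 95% interval −0.53 to 0.13, adjusted p = 0.517 in limma). The GCN2 gene *EIF2AK4* (hCG38697.3), the amino acid sensor, read 3.13 and 3.10 in MOCK and 2.90 and 2.83 after knockdown. This was the smallest change among the members that passed the filter, with a log2 change of −0.12 (SE 0.12, 95% interval −0.45 to 0.21, limma adjusted p = 0.732).

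The *EIF2AK1* probe is annotated to *JTV1* as well (a gene now named *AIMP2* that encodes a scaffold protein of the tRNA synthetase complex), so the transcripts cannot be told apart on it. It read 7.23 and 7.15 in MOCK and 6.52 and 5.74 after knockdown, with a quality flag of unstated meaning on the last array. The log2 change was −0.23 (SE 0.14, 95% interval −0.60 to 0.13, limma adjusted p = 0.492). For *EIF2AK1* and *EIF2AK4* the separation of the groups depended on the scaling: with the deposited normalized signal and no further scaling, *EIF2AK4* read 18.96 and 21.34 in MOCK and 19.52 and 16.85 after knockdown, and *EIF2AK1* read 43.79 and 49.22 against 43.91 and 34.22. On that scale 5 of the 7 member probes that passed the filter had groups that did not overlap (34.7% of all probes kept), and both of these kinase probes overlapped. The other kinase probes were only narrowly separated on it. *EIF2AK2* read 6.10 and 7.36 in MOCK and 6.02 and 5.05 after knockdown, and *EIF2AK3* read 5.17 and 6.02 against 5.09 and 4.47.

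**Figure D1:**
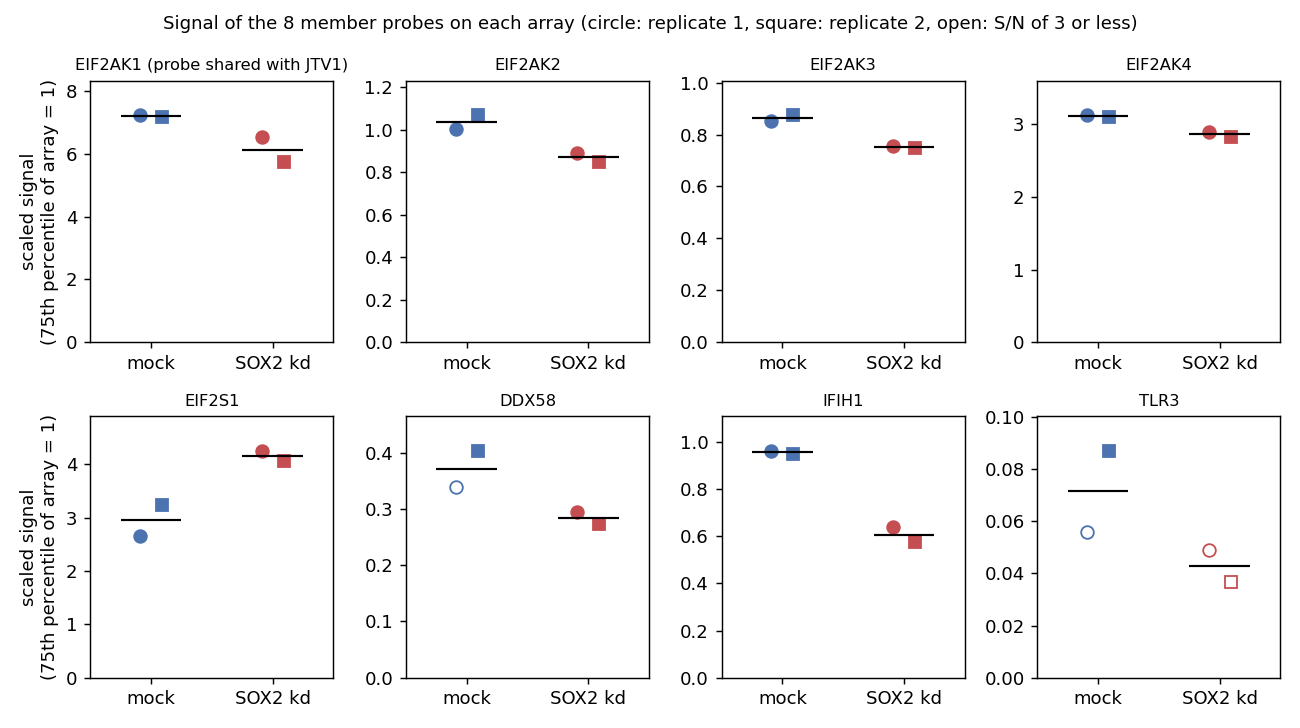
Scaled signal (75th percentile of the array set to 1, linear axes from 0) of each member probe on the 2 MOCK and 2 SOX2 knockdown arrays. Circles are replicate 1, squares replicate 2, open symbols have S/N of 3 or less, and bars are group means. *EIF2S1* is higher after knockdown and the other 7 probes are lower. *IFIH1* shows the largest difference among the probes that passed the filter, at 0.634 times the MOCK mean.

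The substrate gene *EIF2S1* (hCG21909.2), which encodes eIF2 alpha, was the only member with a higher signal after knockdown. It read 2.66 and 3.23 in MOCK and 4.26 and 4.06 after knockdown, a mean of 2.94 ± 0.409 (SD, n = 2) against 4.16 ± 0.138 (SD, n = 2). Both knockdown arrays were above both MOCK arrays, at 1.41 times the MOCK mean, although the MOCK arrays themselves differed by 0.28 on the log2 scale. The log2 change was 0.50 (SE 0.16, 95% interval 0.08 to 0.92). Its unadjusted p of 0.0282 became 0.234 after Benjamini-Hochberg adjustment over all probes in limma, so the change did not pass. Its size was above that of 85.3% of the probes kept.

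Of the sensors, *IFIH1* (hCG40275.2, MDA5) had the largest difference among the members that passed the filter. It read 0.964 and 0.949 in MOCK and 0.640 and 0.574 after knockdown, a mean of 0.956 ± 0.0103 (SD, n = 2) against 0.607 ± 0.0466 (SD, n = 2), or 36.6% lower. Every knockdown array was below every MOCK array, by 0.57 to 0.75 on the log2 scale, whereas replicates differed by 0.02 in MOCK and 0.16 after knockdown. The log2 change was −0.66 (SE 0.13, 95% interval −1.02 to −0.30, unadjusted p = 0.00605, limma adjusted p = 0.139). With the deposited normalized signal and no further scaling, the probe read 5.84 and 6.53 in MOCK and 4.31 and 3.42 after knockdown. On that scale the replicates lay farther apart, and the groups still did not overlap. In scaled signal the change thus exceeded the spread between its own replicates but did not pass the adjusted threshold. It was larger in size than that of 91.7% of the probes kept, and 3.87% of probes were as low or lower.

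The RIG-I gene *DDX58* (hCG1811781.1) was dimmer relative to its noise. It read 0.340 and 0.404 in MOCK and 0.294 and 0.273 after knockdown, and S/N was 2.73 on the first of the MOCK arrays and 3.68 to 6.30 on the others. The probe therefore passed the filter only through the knockdown group, in which it was lower. The log2 change was −0.39 (SE 0.15, 95% interval −0.79 to 0.02, unadjusted p = 0.0585, adjusted p = 0.314 in limma), and the MOCK arrays differed by 0.25.

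*TLR3* (hCG1787812.1), the endosomal sensor, had S/N over 3 on only 1 of the 4 arrays and was not tested with the others. It read 0.0561 and 0.0872 in MOCK and 0.0490 and 0.0369 after knockdown. Both knockdown arrays were below both MOCK arrays, but neither knockdown array and only 1 MOCK array was above S/N 3, so no fold or bound is given. The MOCK arrays themselves differed by 0.64 on the log2 scale, and a limma fit without the filter gave an adjusted p of 0.507.

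**Figure D2:**
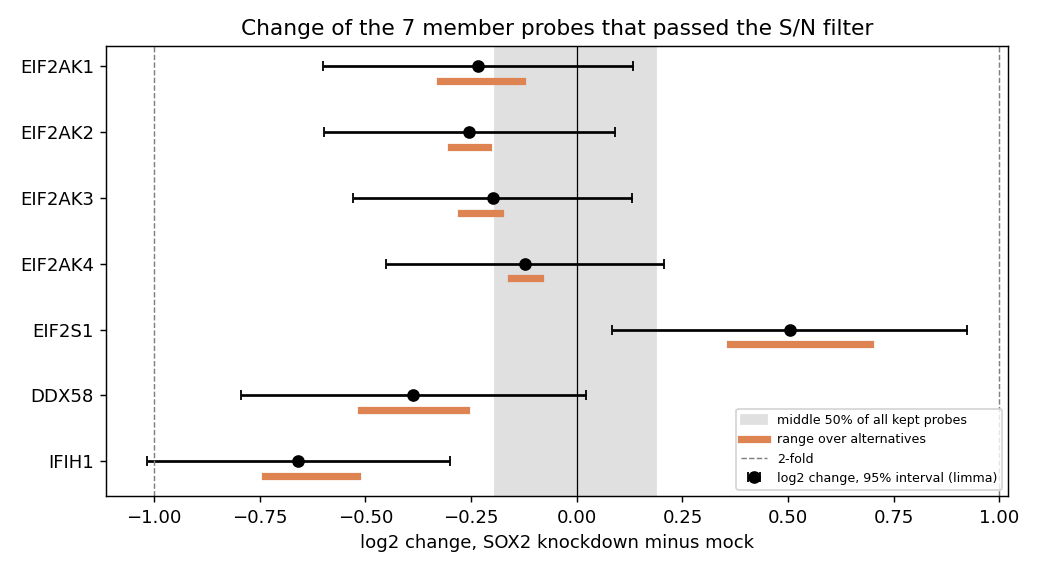
Log2 change (SOX2 knockdown minus MOCK) of the 7 member probes that passed the S/N filter, with 95% intervals from limma (bars). Orange bars give the range over the alternative processing settings, the grey band the middle 50% of all probes kept (−0.19 to 0.19) and dashed lines 2-fold. The intervals of *IFIH1* and *EIF2S1* exclude 0 before adjustment for multiple testing, and no point reaches 2-fold.

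Across the 7 member probes that passed the filter, 6 were lower and 1 was higher after knockdown (50.2% of all 21256 probes kept were lower). Their median log2 change was −0.23, against −0.00 for all probes kept. By the 2-fold cutoff of replicate means, 0 of the 7 passed, where 2.61% of all probes did (1.57% higher and 1.04% lower). At a 1.5-fold cutoff 1 of the 7 passed (*IFIH1*), against 10.5% of all probes. At an adjusted p under 0.05 in limma, 0 of the 7 passed, and the background was 0% (0 of 21256 probes, the smallest adjusted p being 0.0582). At an unadjusted p under 0.05, 2 of the 7 passed (*IFIH1* and *EIF2S1*), against 17.1% of all probes. Groups did not overlap for any of the 7 (47% of all probes kept, 25.8% lower and 21.2% higher), and *TLR3*, which did not pass the filter, did not overlap either. The changes of the 4 kinase probes were larger in size than those of only 34.7% to 61.3% of the probes kept.

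**Figure D3:**
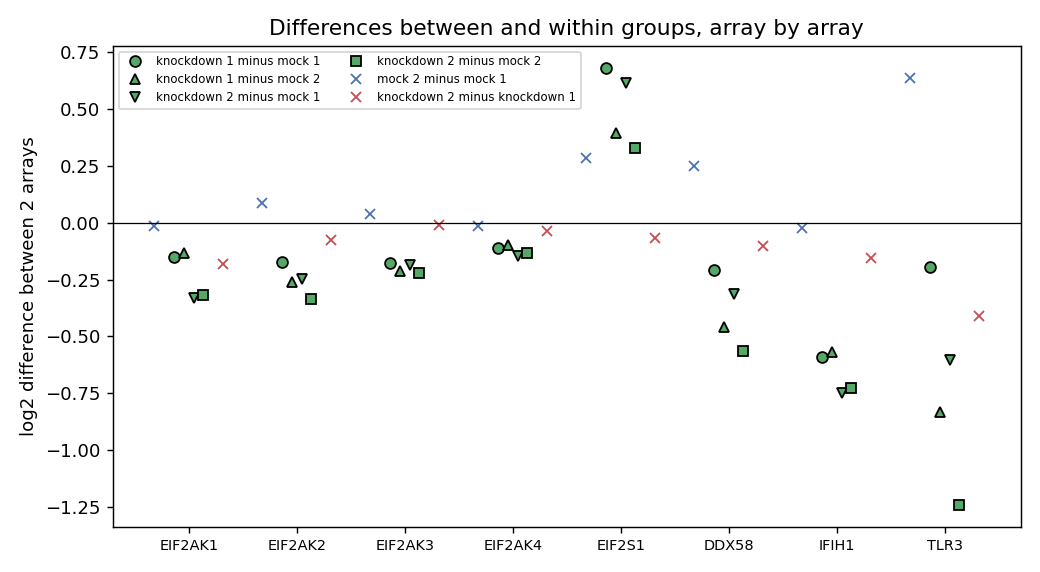
Log2 differences between single arrays for each member: filled green symbols are the 4 knockdown-minus-MOCK pairs, and crosses are differences between replicates of 1 group (blue MOCK, red knockdown). For *IFIH1* the 4 pairs lie between −0.75 and −0.57, clear of both replicate differences. For *DDX58*, *EIF2S1* and *TLR3* the MOCK arrays differed by 0.25, 0.28 and 0.64, close to or above the smallest between-group pair. For *EIF2AK1* the knockdown arrays differed by 0.18, more than the size of its smallest between-group pair (−0.13).

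The probes whose pattern over the 4 arrays was most like that of *IFIH1* were those of *C6orf162*, *LAMC1* and *ITGAV*. The Euclidean distances of the centred log2 signals were 0.0174, 0.0258 and 0.0287 among 19460 other probes with S/N over 3 on all arrays. Only probes with 1 gene symbol could be picked from these. *LAMC1* encodes a laminin chain and *ITGAV* an integrin subunit. Over only 4 arrays many probes can share a pattern, and the likeness is a description.

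Among the partners of eIF2 alpha, more probes were higher than lower after knockdown, but several were repeat probes of the same gene. The list of eIF2 and eIF2B subunits and the eIF2 alpha phosphatase held 12 genes, 17 probes and 15 probes kept, of which 10 were higher and 5 lower (median log2 change 0.10). None passed 2-fold or an adjusted p under 0.05 in limma, and 3 higher and 0 lower probes had an unadjusted p under 0.05 (background 7.9% higher and 9.16% lower). *PPP1R15A* (GADD34), the inducible subunit that returns eIF2 alpha to its unphosphorylated state, read 2.95 and 3.18 in MOCK and 5.29 and 5.53 after knockdown (log2 change 0.82, SE 0.13, limma adjusted p = 0.111). The beta subunit gene *EIF2S2* was higher on all 4 of its probes, by 0.29 to 0.54 on the log2 scale. Only probes of *PPP1R15A* and *EIF2S2* had an unadjusted p under 0.05 in this list. *EIF2S3*, the gamma subunit gene, was −0.22 on the brighter and 0.10 on the dimmer of its probes. The kept eIF2B subunit genes *EIF2B1*, *EIF2B2*, *EIF2B3* and *EIF2B4* were all lower, at −0.09, −0.11, −0.17 and −0.08. Signals of *EIF2B5*, which encodes the catalytic subunit of the exchange factor eIF2B, had S/N under 3 on every array.

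The 10 regulators of the kinases had 12 of 13 probes kept, 5 higher and 7 lower (median −0.05), with none past 2-fold (2.61% of all probes kept). At an unadjusted p under 0.05 there was 1 lower probe (9.16% of all probes kept). That probe was *IMPACT*, an inhibitor of GCN2 activation, which read 0.799 and 0.734 in MOCK and 0.554 and 0.512 after knockdown (log2 change −0.52, SE 0.13, limma adjusted p = 0.185). *OMA1*, the mitochondrial protease upstream of HRI, gave −0.33 on a probe shared with *DAB1*. *DNAJC3* (p58IPK), an inhibitor of PKR and PERK, gave 0.33 on its kept probe, and the 3 probes of *PRKRA* (PACT), an activator of PKR, lay between −0.05 and 0.06.

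The adaptors and signalling partners of the sensors (17 genes, 18 of 20 probes kept) were evenly divided, with 9 higher and 9 lower and a median of −0.02. In this list 1 probe was past 2-fold (2.61% of all probes kept), that of *TRIM25*, the ubiquitin ligase known to act on RIG-I. It read 0.0693 and 0.0843 in MOCK and 0.255 and 0.210 after knockdown, which is 3.03-fold higher (log2 change 1.60, SE 0.18, limma adjusted p = 0.0884). *DHX58* (listed as *LGP2*), the RIG-I-like protein without signalling domains, read 0.104 and 0.0988 in MOCK and 0.0430 and 0.0604 after knockdown (log2 change −0.99, SE 0.21, limma adjusted p = 0.143). The adaptor genes themselves, named here for their role after the values were seen, gave −0.26 for *MAVS* (listed as *VISA*) and 0.32 for *TICAM1*.

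Of the other double-stranded RNA proteins (11 genes, 12 of 16 probes kept), 2 probes were higher and 10 lower (median −0.09), none past 2-fold. Of all probes kept, 50.2% were lower and 2.61% were past 2-fold. A *ZBP1* probe among the higher ones gave 0.004 and carried a flag of unstated meaning on every array. The other *ZBP1* probe had S/N under 3 on every array. *OAS1*, which makes the 2-5A messenger in response to double-stranded RNA, read 0.219 and 0.233 in MOCK and 0.122 and 0.116 after knockdown on its brighter probe (log2 change −0.93, SE 0.13, limma adjusted p = 0.101). Its other probe gave −0.52 with replicates that differed by 0.74 in MOCK. At an unadjusted p under 0.05 there were 2 lower probes and 0 higher ones (9.16% and 7.9% of all probes kept). The brighter *OAS1* probe was among the lower ones.

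The genes that act downstream of both routes had list medians farther from 0 than the members. Both lists were written with these genes' behaviour on these arrays known, so their directions are a description. Of the interferon outputs, 8 of 13 probes were kept, 7 lower and 1 higher (median −0.48). An unadjusted p under 0.05 was found for 5 lower probes (9.16% of all probes kept), and 3 were past 2-fold lower (1.04% of all). Those past 2-fold were *IFIT1*, *IFIT2* and *IFIT3*, interferon-induced proteins that restrict translation of viral RNA, at −1.23, −1.26 and −1.41 on the log2 scale (limma adjusted p = 0.0833 for each). *IFIT3* for example read 0.559 and 0.651 in MOCK and 0.223 and 0.233 after knockdown. The 4 genes *IFNB1*, *IFNL1*, *CXCL10* and *MX1* did not pass the S/N filter, and the highest of their scaled signals was 0.109. *IFNB1*, which encodes interferon beta, read 0.0446 and 0.0407 in MOCK and 0.0876 and 0.109 after knockdown, with S/N not over 3 on any array, so its order has no reliable signal behind it.

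All 13 probes of the ATF4 outputs, from 8 genes, were kept, and all 13 were higher (median 1.08). Of these, 7 were past 2-fold, against 1.57% of all probes kept that were past 2-fold higher. An unadjusted p under 0.05 was found for 9, against 7.9% of all probes in that direction. None passed an adjusted p of 0.05. *SESN2*, a stress-induced inhibitor of mTORC1 signalling, read 3.96 and 5.75 in MOCK and 19.4 and 22.2 after knockdown (log2 change 2.12, SE 0.23, limma adjusted p = 0.0833). *CHAC1*, which degrades glutathione, read 0.101 and 0.105 in MOCK and 0.422 and 0.436 after knockdown (log2 change 2.06, SE 0.13, limma adjusted p = 0.064). The pseudokinase gene *TRIB3* gave 1.95 on its bright probe and 0.06 on the other. The transcription factor genes *DDIT3* (CHOP) and *ATF3* gave 1.66 and 1.36, with a quality flag of unstated meaning on knockdown replicate 2 for *ATF3*. *ASNS*, asparagine synthetase, gave 1.33 and 1.08 on its own probes and 0.08 on a probe shared with other genes. The *ATF4* transcript itself, named after its values were seen, gave 0.14 and 0.42 on its 2 probes. The probe at 0.42 had a flag of unstated meaning on knockdown replicate 2, and its MOCK arrays differed by 0.54 on the log2 scale.

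**Figure D4:**
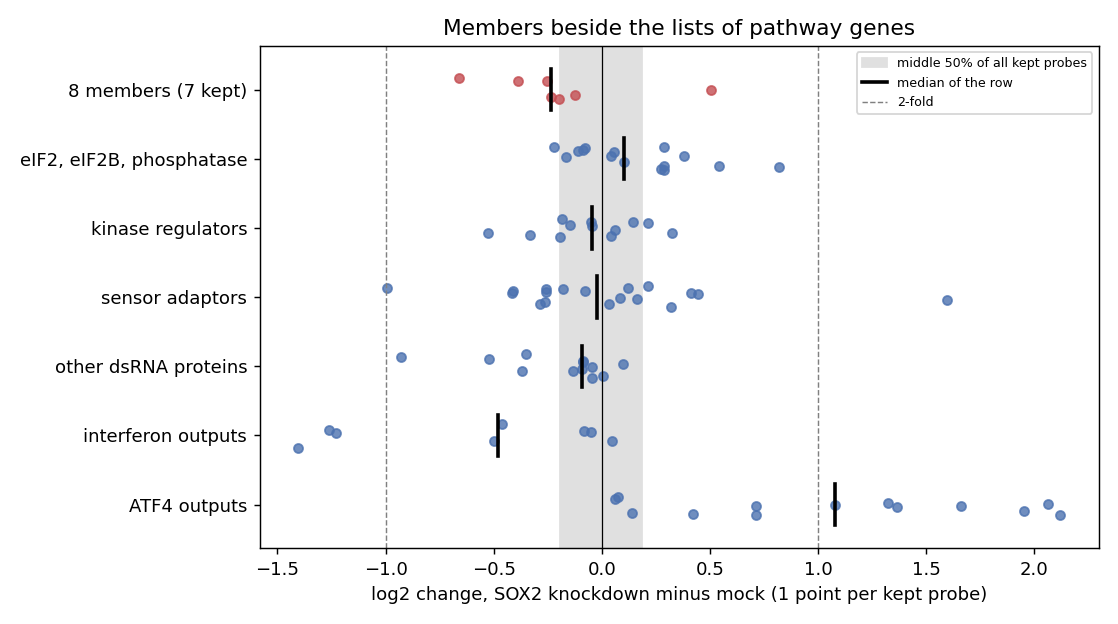
Log2 change (SOX2 knockdown minus MOCK) of every kept probe, by list, with 1 point per probe, black bars for list medians, a grey band for the middle 50% of all probes kept and dashed lines at 2-fold. The members lie near the band except *IFIH1*, *DDX58* and *EIF2S1*, the ATF4 outputs are all above 0 (median 1.08), and the interferon outputs have a median of −0.48.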

How the data were processed

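Total RNA of LN229 cells was biotin-labelled and hybridised to 1-colour arrays, 1 per sample, with 2 arrays per group (biological replicates per the study's methods). The deposited scanner files give intensity values that the authors' scanner software had normalized on a linear scale, rounded to 2 decimals. Per the file headers, S/N is a separate score. A second deposited table holds a linear ratio per probe that the authors had scaled per chip and per gene, used as an alternative only. The study's methods name hg18 for their annotation, from which no coordinates were taken here, and flag meanings are not given in the sources used here.

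Control features and 210 probes with a flag of 5000 or more were left out. Signals were scaled to the 75th percentile of the array's probes, floored at 0.01 and transformed to log2. A probe passed if at least 1 group had S/N over 3 on each of its arrays (21256 kept, 11630 not). Single probes were tested with limma 3.58.1 (lmFit and eBayes, R 4.3.3, two-sided, Benjamini-Hochberg over all probes kept), and a 2-fold cutoff of linear replicate means was applied as in the study's methods. The fit was tested on simulated data. Named from each list were genes past 2-fold and the 2 with the largest change on their brightest probe, except that some items are not reported here. *DNAJC3*, *PRKRA*, *EIF2S3*, *EIF2B5*, *VIL1*, *KRT20*, *CDH17*, *MAVS*, *TICAM1*, *IFNB1* and *ATF4* were named after their values were seen. So were *EIF2B1*, *EIF2B2*, *EIF2B3*, *EIF2B4*, *EPCAM*, *CEACAM5*, *CDX1* and *ZBP1*. Members, lists and tests were chosen with earlier results of these data known. Alternatives changed the scaling, background correction, floor, filters, fold cutoff, variance model and block, or left out 1 array.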

Additional observations from a re-analysis of the deposited data

How the results depend on the processing

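All 7 member probes that passed the filter kept their direction under each of 19 alternatives (18 for *DDX58*, which does not have S/N over 3 on all 4 arrays). With 2 arrays in each group, all stayed above an adjusted p of 0.05 in limma. The floor, S/N filter, variance trend and block settings could not change the direction, because they left the log2 change as it was. Nor could leaving out 1 array, because the groups of these probes did not overlap. The log2 change of *IFIH1* ranged from −0.74 to −0.58 when 1 array was left out and from −0.69 to −0.52 otherwise (adjusted p from 0.0838 to 0.679). That of *EIF2S1* ranged from 0.36 to 0.65 and from 0.47 to 0.69 (adjusted p from 0.111 to 0.749). At a 1.5-fold cutoff 1 member (*IFIH1*) passed (10.5% of all probes did), 5 list probes were lower past the cutoff against 3 at 2-fold, and 11 were higher against 8. The *SOX2* log2 change passed the adjusted threshold with median scaling (−1.73, adjusted p = 4.64e-07), with no further scaling (−1.72, adjusted p = 8.15e-07) and in the authors' table (−1.72, adjusted p = 6.63e-07). List probes at an adjusted p under 0.05 then numbered 13 under each of these scalings and 12 with a variance trend, against 0. Over all probes the calls were 826, 776 and 758 under these scalings, 287 with the trend, 5 with S/N over 3 on all 4 arrays and 0 as reported. In the 3 scalings eBayes gave every probe 1 shared SE (0.288, 0.291 and 0.288), so a probe's own replicate spread no longer entered its test. Probes past 2-fold numbered 554, against 1373 with no S/N filter, 363 with a floor of 0.05, 302 where all 4 arrays had S/N over 3, 235 after normexp and 932 without MOCK replicate 1.

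The labels give both groups the same replicate numbers, but the deviations of same-numbered arrays correlated negatively (r = −0.484 over 21256 probes, which are not independent), so the numbers were not taken as pairs. With the replicate number as a block, 0 probes had an adjusted p under 0.05 and *IFIH1* gave −0.66 (adjusted p = 0.511). With the crossed pairing, chosen after seeing the data, 0 probes did.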
